A study of Mus musculus with 7 samples.

Results

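The cells described here carry transcripts of Th, the gene of tyrosine hydroxylase, and were found one by one in coronal sections of mouse brain. A cell was counted as a Th cell when it held at least 5 Th transcripts and at least 50 transcripts in all, at most 3 transcripts of Chat (choline acetyltransferase, the marker of cholinergic neurons) and at most 3 of the vascular genes Cldn5 and Acta2 together. This gave 311 Th cells, which is 0.0959% of the 324448 cells that passed the other limits. Of these, 263 (84.6%) held at least 5 transcripts of Gad1 and Gad2 together and are called Gad-high Th cells. The other 48 (15.4%) are called Gad-low Th cells.

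Tyrosine hydroxylase turns tyrosine into L-DOPA, the rate-limiting step in the synthesis of dopamine, noradrenaline and adrenaline. A neuron that makes dopamine for release also needs a decarboxylase and the vesicular monoamine transporter, and many take dopamine back up through the dopamine transporter, the product of Slc6a3. Gad1 and Gad2 encode the enzymes that make the inhibitory transmitter GABA, and Slc17a6 and Slc17a7 encode vesicular glutamate transporters of excitatory neurons. In the forebrain, Th transcripts are known from hypothalamic and incertal dopamine neurons, from scattered interneurons of cortex and striatum, and from neurons that contain little or no enzyme. Of 8 other catecholamine genes listed, Slc6a3 was the 1 measured, so whether these cells make dopamine was not measured.

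The transcripts were counted in place with Xenium, an imaging method that detects single RNA molecules of a chosen panel of genes inside each cell outline. The samples were 7 hemisections of fresh-frozen WT brain, each 10 µm thick, that had been embedded in OCT and snap frozen and passed through the anterior thalamic nuclei. The anterior sections (2, bregma -0.58 mm), the intermediate sections (2, bregma -0.70 to -0.82 mm) and the posterior sections (3, bregma -0.94 mm) form the groups, and no other treatment or allele is given in the labels. Both later posterior sections, replicates 3 and 4, lay on a slide of their own, so slide and replicate cannot be told apart within the posterior group. Neither the age of the animals nor whether sections came from separate animals is given in the labels, so each p-value is set against section-to-section spread alone, part of which may be technical.

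The table held 146504697 transcripts of 297 genes in 384076 cells, between 17438577 and 23432215 transcripts per section and a median of 278 to 390 per cell. A total of 373198 cells had at least 50 transcripts, and 352 of them held at least 5 of Th. The limit on Chat set aside 27 of those 352 cells, the limit on Cldn5 and Acta2 set aside 16, and 2 of them broke both limits. No Th cell had a barcode that occurred in more than 1 section. Intervals and limits given for shares are Wilson intervals or 3 cells of the total, and cover counting error only.

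Th was absent or nearly so from most cells: 97.2% of the cells that passed the other limits held no Th transcript. Another 7211 held exactly 1, 965 held 2, 337 held 3 and 160 held 4. Just inside the limit, 103 cells held 5 Th transcripts and 64 held 6. The highest value was 20, and 42 Th cells held at least 10. The median was 6 in Gad-high and in Gad-low Th cells alike, and because Th chose the cells these values are a description.

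The cells just below the limit resembled those just above it in their Gad share. Of the 160 cells with 4 Th transcripts, 148 (92.5%) were Gad-high, against 90 of 103 (87.4%) at 5 transcripts and 32 of 42 (76.2%) at 10 or more. Cells with at least 2 transcripts of Slc6a3 made up 1.88%, 5.83% and 23.8% of those 3 bands, and 2.37% at 3 Th transcripts. All 10 such cells in the highest band lay in intermediate replicate 2. The count distribution therefore showed no gap at the limit, and cells with few Th transcripts are left out of what follows.

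The share of cells at or above the limit was set against cell classes that should lack the gene. No cell of 11945 with astrocyte signal (Aqp4 of at least 10 and few Gad transcripts) held 5 Th transcripts, which allows a share of up to 0.0251%. Among 18305 oligodendrocyte-like cells, chosen by Opalin in the same way, 1 did (0.00546%), and among 68567 Gad-low cells with Slc17a7 of at least 10 none did, which allows up to 0.00438%. The share was 0.210% of all Gad-high cells and 0.147% of Gad-low cells with at least 5 transcripts of Slc17a6. The median totals of those 5 classes were 375, 208, 532, 439 and 495 transcripts, so the oligodendrocyte-like class was the shallowest. The Slc17a7 class was deeper than the Gad-high and Slc17a6 classes.

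Th cells were found in every section. They made up 0.0571% and 0.109% of cells with at least 50 transcripts in anterior replicates 1 and 2, 0.0480% and 0.129% in intermediate replicates 1 and 2, and 0.0645%, 0.0980% and 0.0723% in posterior replicates 1, 3 and 4. The lowest and the highest share were both intermediate, and the 3 groups overlapped. Both sections with the lowest shares also had the lowest median totals per cell, 278 and 302 against 305 to 390 in the other 5, and the part of depth in the shares was not tested; thinned to 200 transcripts a cell with at least 2 of Th, the shares ran from 0.148% to 0.301%. The mean share was 0.0829% ± 0.0364 (SD, n = 2) in anterior, 0.0886% ± 0.0575 (SD, n = 2) in intermediate and 0.0783% ± 0.0175 (SD, n = 3) in posterior sections. The posterior mean was lower than the anterior one by less than the spread within either group (two-sided exact permutation test, p = 0.8, where 10 regroupings allow no p under 0.1).

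**Figure D1:**
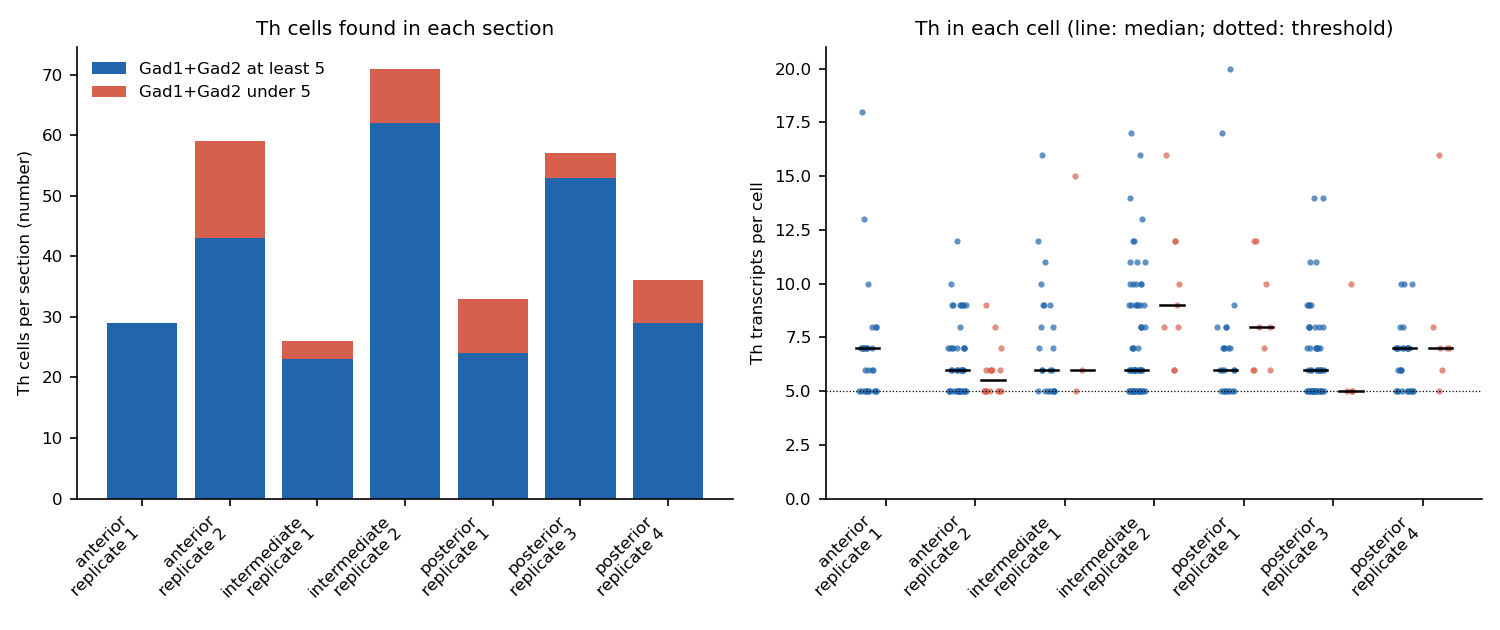
Left, number of Th cells in each section, stacked as Gad-high and Gad-low cells; right, Th transcripts per cell in each section, with the section's median as a bar and the limit of 5 as a dotted line. Gad-high Th cells outnumber Gad-low ones in all 7 sections, and the largest count is in intermediate replicate 2.

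Gad-high Th cells numbered 29 and 43 in the anterior, 23 and 62 in the intermediate and 24, 53 and 29 in the posterior sections, in the order of their replicate numbers. Gad-low Th cells numbered 0, 16, 3, 9, 9, 4 and 7 in the same order. In anterior replicate 1, 0 of 29 Th cells were Gad-low, which allows a share of up to 10.3%. The Gad-high share was 86.4% ± 19.2 (SD, n = 2), 87.9% ± 0.804 (SD, n = 2) and 82.1% ± 10.2 (SD, n = 3) by position, and posterior and anterior sections did not differ beyond their spread (exact permutation test, p = 0.7).

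Both kinds of Th cell were richer in transcripts than the cells they were set against. The median total was 612 in Gad-high Th cells against 438 in the 125246 other Gad-high cells. It was 571 in all 48 Gad-low Th cells against 495 in the 29198 other Gad-low cells with at least 5 Slc17a6 transcripts. Of the 48, 43 met that mark. A limit on a raw count picks cells with more transcripts, so the gene comparisons below use levels relative to the total. The shares of cells that reach a set number of transcripts, also given below, rest on raw counts and are not scaled. Control probes, which should bind nothing, gave 0.586 counts per Gad-high Th cell and 0.479 per Gad-low Th cell.

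Few Th cells lay near the Gad limit. There, 3 Th cells held 4 Gad transcripts, 1 held 5 and 7 held 5 to 9, while 20 of the 48 Gad-low cells held none. The median was 53 Gad transcripts in Gad-high Th cells, against 16 in other Gad-high cells, and 1 in Gad-low Th cells. These are values the rule used and carry no test.

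Slc17a6 was frequent in Th cells with few Gad transcripts and infrequent in those with many. At least 5 Slc17a6 transcripts were found in 19 of the 20 Th cells with no Gad transcript and in 24 of the 28 with 1 to 4. The same held for 21 of the 27 Th cells with 5 to 19 Gad transcripts, for 6 of 92 with 20 to 49 and for 9 of 144 with 50 or more. The 27 cells with 5 to 19 Gad transcripts thus counted as Gad-high but mostly carried the glutamate transporter. They differed from the Gad-low cells in other genes: 22 of 27 held at least 5 transcripts of Calb2 (calretinin) and 2 of 27 held 5 of Ebf3, against 4 and 11 of the 20 cells with no Gad transcript. These bands were drawn after the values were seen and are a description.

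**Figure D2:**
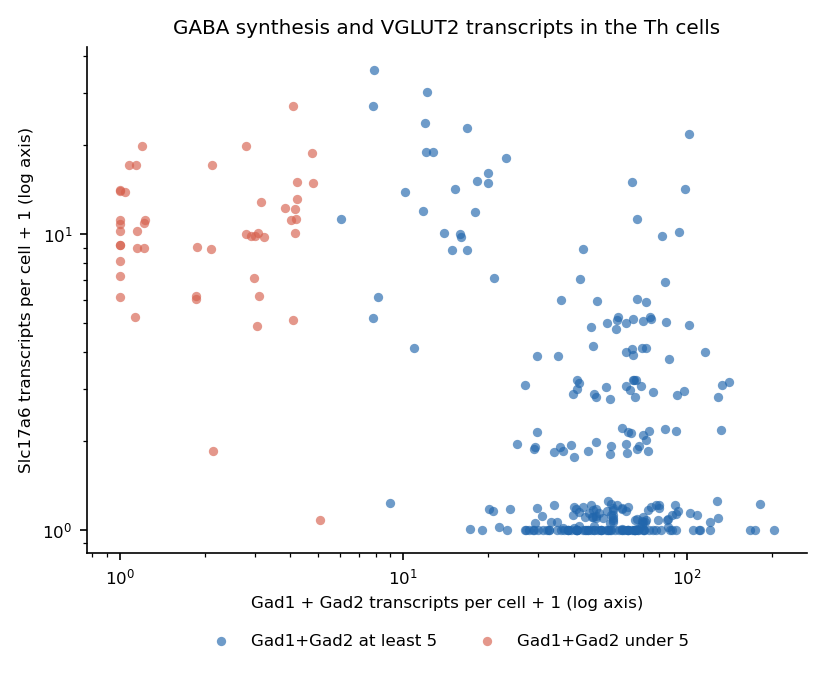
Each point is 1 of the 311 Th cells, with its Gad1+Gad2 transcripts on the horizontal axis and its Slc17a6 transcripts on the vertical axis, both on log axes of the value plus 1 and with a small random offset. Of the Gad-low cells, 43 of 48 hold at least 5 Slc17a6 transcripts, against 36 of 263 Gad-high cells.

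Slc6a3, the dopamine transporter, was found in Gad-high Th cells: the 48 Gad-low Th cells held no Slc6a3 transcript at all. At least 2 were held by 30 Gad-high Th cells (11.4%), with a median of 5 and a highest value of 18. They numbered 0 and 7 in anterior replicates 1 and 2, 0 and 21 in intermediate replicates 1 and 2, and 1, 0 and 1 in posterior replicates 1, 3 and 4. So 28 of the 30 cells lay in both replicate 2 sections at the anterior and intermediate positions. Their mean Th was 8.63 transcripts per cell, against 7.02 in all Gad-high Th cells, of which they are part. The cells outside intermediate replicate 2 held 5 to 9 Th transcripts each, and those in that section up to 17. Because Th chose the cells, these values are a description.

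Read from the transporter, Slc6a3 cells were few and mostly held Th. Only 30 cells that passed the other limits held at least 5 Slc6a3 transcripts, and all 30 were Gad-high. They lay mostly in 1 section: 22 in intermediate replicate 2, 6 in anterior replicate 2 and 1 each in intermediate replicate 1 and posterior replicate 1. Of these, 17 (56.7%, Wilson interval 39.2% to 72.6%) reached the limit of 5 Th transcripts, 14 of them in intermediate replicate 2, and 29 held at least 1. At 2 to 4 Slc6a3 transcripts, 13 of 106 cells (12.3%) reached the Th limit. Of Gad-high cells with at least 5 transcripts of Sst (somatostatin), which lay in all 7 sections, 33 of 3462 did (0.953%). The share was 0.210% over all Gad-high cells. Among Gad-high cells chosen by other genes, it was 0.160% with at least 5 transcripts of Ppp1r1b and 0.214% with at least 20 of Pvalb. With at least 5 of Vip it was 0.101%, and with at least 5 of Lamp5 0.0588%.

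All 263 Gad-high Th cells, those with Slc6a3 included, were divided by single markers after their values were seen, so the following is a description with no test, and a cell can fall in more than 1 subset. At least 5 transcripts of Oprm1 (the mu-opioid receptor) were held by 58 cells (22.1%), and 57 (21.7%) held as many of Ppp1r1b (DARPP-32, a phosphoprotein of striatal projection neurons that is controlled by dopamine). Slc17a7 reached 5 in 42 cells (16.0%), Slc17a6 in 36 (13.7%) and Sst in 33 (12.5%). At least 20 transcripts of Pvalb (parvalbumin) were held by 28 cells (10.6%), and 49 cells (18.6%) met none of these marks. Of all 125509 Gad-high cells, 35565 met the Ppp1r1b mark, a larger share than in Th cells, and 13078 the Pvalb mark, a similar share. As means over sections, Slc17a7 reached 5 in 19.1% of Gad-high Th cells against 28.9% of other Gad-high cells. For Slc17a6 it was 12.7% against 8.84%, and for Sst 10.3% against 2.76%.

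The subsets differed in their other genes. Cells with Ppp1r1b also carried Pcp4 (mean 22.5 against 5.36 transcripts per cell in the rest), Bcl11b (5.65 against 1.26) and Penk, the proenkephalin gene (7.75 against 1.90). Cells with Slc17a7 carried Arc (15.0 against 2.37), a gene switched on by neuronal activity, and the cortical transcription factor gene Neurod6 (3.38 against 0.118), which reached 5 in 10 of the 42 cells. Cells with Slc17a6 had fewer Gad transcripts, with a median of 17, and carried Calb2 (17.7 against 3.89) and Calb1, the gene of calbindin (11.1 against 3.89). Cells with Pvalb carried Ramp3 (7.46 against 0.226), a receptor-associated protein gene, which reached 5 in 14 of the 28 cells. Cells with Slc6a3 carried Hpcal1, a calcium sensor gene (11.4 against 4.52). Their mean of Sncg, the gene of gamma-synuclein, was 9.37 against 0.652, but the median was 2, and 11 of the 12 cells that reached 5 lay in intermediate replicate 2. Segmented cells can include transcripts of neighbours, and the part of neighbours in these mixtures was not tested.

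**Figure D3:**
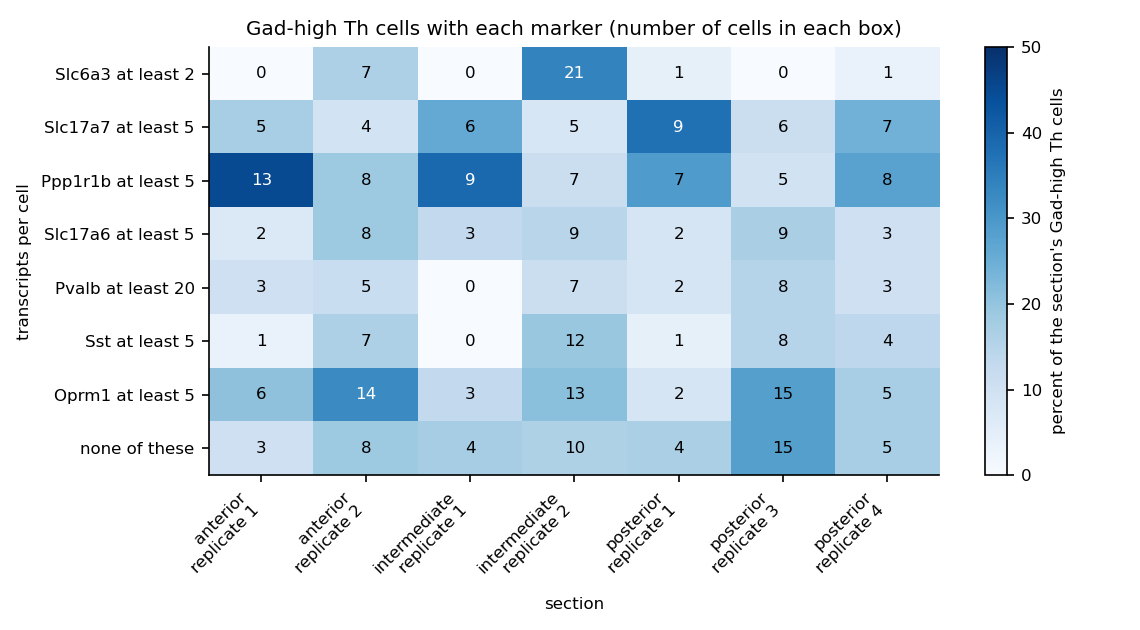
Percent of each section's Gad-high Th cells that met each single-marker mark; rows are marks, columns are the 7 sections, the colour is the percent and the number in each box is the number of cells. In the Slc6a3 row 28 of 30 cells are in anterior replicate 2 and intermediate replicate 2, while the Ppp1r1b row holds 5 to 13 cells in every section.

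Most pairs of subsets shared few cells. Of the 33 cells with Sst, 16 also met the Oprm1 mark, 8 the Pvalb mark and 7 the Slc6a3 mark. Ppp1r1b and Slc17a6 marked no cell in common, and Ppp1r1b and Slc17a7 marked 1. The Ppp1r1b cells numbered 13, 8, 9, 7, 7, 5 and 8 from anterior replicate 1 to posterior replicate 4. They were thus present in every section.

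The next question was which genes set Gad-high Th cells apart from the other Gad-high cells of the same sections. Transcripts were summed per section and class, and the 291 genes that the rule did not use were compared within sections with edgeR's quasi-likelihood test. Of these, 137 (47.1%) passed an adjusted p of 0.05, 67 (23%) higher and 70 (24.1%) lower in Th cells. The sections of the 2 classes did not overlap for 73 genes (25.1%), and 166 (57%) had an unadjusted p under 0.05. Scaling by library size in place of TMM moved the median difference of all genes from 0.01 to -0.13 (log2) and gave 51 higher and 89 lower. Levels below are transcripts per 1000 of those 291 genes. Panel genes are not compared with each other, since detection differs by probe.

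The genes with the largest differences upwards included Tmem255a and Zcchc12. Tmem255a, a transmembrane protein gene, stood at 6.19, 15.0, 8.41, 15.9, 6.71, 10.7 and 7.04 in the Th cells of the 7 sections, from anterior replicate 1 to posterior replicate 4. Other Gad-high cells lay between 2.44 and 4.25. The classes did not overlap, and the difference was 1.77 ± 0.13 (log2 ± SE, adjusted p = 2.85e-06), or 3.41-fold. Zcchc12, a transcriptional coactivator gene, ran from 14.1 through a median of 16.5 to 24.2 in Th cells against 4.67 to 9.39, a difference of 1.66 ± 0.11 (adjusted p = 1.79e-06). The highest values of both genes were in the Th cells of intermediate replicate 2.

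Several receptor and channel genes were higher in Gad-high Th cells, and are counted beside 23% higher and 24.1% lower among all genes. Of 9 peptide and amine receptor genes tested, 4 were higher (Chrm2, Oprm1, Htr2c and Tacr1) and 1 was lower (Ntsr2), with a median of 0.59 against 0.01 over all genes. Chrm2, a muscarinic acetylcholine receptor gene, lay at 2.90 to 5.87 in Th cells against 1.82 to 2.01, with no overlap (1.37 ± 0.16, adjusted p = 3.71e-05). Oprm1 was highest in anterior replicate 2 at 10.2 and lowest in posterior replicate 1 at 2.65, against 1.76 to 3.07 in other cells. It was higher in 7 of 7 sections although the ranges overlapped (1.28 ± 0.16, adjusted p = 8.2e-05). Of 12 channel and receptor genes, 6 were higher, among them Cacna2d2 (2.01-fold), a calcium channel subunit gene, Trpc4 (1.27 ± 0.16), a cation channel gene, and Grik3 (0.77 ± 0.10), a kainate receptor gene. Kcnh5, a potassium channel gene, was the 1 that was lower, at 1.75 to 2.59 against 4.33 to 4.95 (-1.08 ± 0.12).

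Among genes of adhesion, axon guidance and transmitter release, more passed as higher than as lower, and most guidance genes passed in neither direction. Of 22 guidance and adhesion genes, 8 were higher and 1 lower, beside 23% higher and 24.1% lower among all genes, with a median of 0.39. Slit2, a secreted guidance cue, was at 10.7, 5.14, 7.21, 3.83, 12.2, 4.73 and 6.87 in Th cells, again from anterior replicate 1 to posterior replicate 4, and at 2.35 to 2.94 in other cells. The classes did not overlap (1.52 ± 0.20, adjusted p = 0.000115), and all 3 replicate 1 sections were above the other 4. Cntnap4, a contactin-associated adhesion gene, was 3.09-fold higher (1.63 ± 0.15). Of 12 synaptic genes, 5 were higher, 1 was lower and 6 did not pass, and Rab3b, a small GTPase of synaptic vesicles, lay at 11.8 to 17.4 against 6.01 to 7.17 (1.22 ± 0.11, adjusted p = 7.78e-06).

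Slc6a3 was 24.2-fold higher in the edgeR fit (adjusted p = 0.000994), and anterior and intermediate replicates 2 had the highest levels. Its levels in Th cells were 0, 1.32, 0, 4.30, 0.390, 0.0631 and 0.113 against 0.00801 to 0.0335 in other cells, and it was higher in 5 of 7 sections. Without intermediate replicate 2 the difference was 3.81 ± 0.81 (adjusted p = 0.00453), and without anterior replicate 2 it was 4.12 ± 0.99. Vat1l, a gene similar to vesicle amine transport protein 1, was higher in 7 of 7 sections, at 11.1 to 27.0 against 7.40 to 9.47 (1.22 ± 0.13). It was highest in anterior replicate 2 and in posterior replicate 3.

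Of 10 neuropeptide genes, 3 were higher and 1 lower in Gad-high Th cells, which is near the share among all genes (23% higher, 24.1% lower). Cort, the cortistatin gene, was higher in 7 of 7 sections (1.57 ± 0.32, adjusted p = 0.00231), at 0.505 to 4.06 against 0.403 to 0.623. Sst (1.01 ± 0.32, adjusted p = 0.0224) and Nts, the neurotensin gene (1.03 ± 0.37, adjusted p = 0.0387), were each higher in 5 of 7 sections. Both calls were lost when single sections were left out: without anterior replicate 2 the adjusted p of Sst was 0.0928, and without anterior replicate 1 that of Nts was 0.117. For Sst it was 0.0855 without intermediate replicate 2, 0.0507 without posterior replicate 3 and 0.0586 without posterior replicate 4. For Nts it was 0.0959 and 0.113 without intermediate replicates 1 and 2, and 0.115 without posterior replicate 4. Vip, the gene of vasoactive intestinal peptide, was lower (-1.37 ± 0.37, adjusted p = 0.0112). Penk (-0.42 ± 0.16, adjusted p = 0.0522) and Pdyn, the prodynorphin gene (0.50 ± 0.20, adjusted p = 0.0518), missed the threshold.

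Among 7 genes of calcium-binding proteins, Calb2, Necab2, Hpcal1 and Cabp7 were higher and none was lower, beside 23% and 24.1% of all genes. Calb2 was 1.96-fold higher (0.97 ± 0.13, adjusted p = 8.74e-05), at 4.82 to 13.2 against 3.63 to 7.79. Pvalb (-0.31 ± 0.27, adjusted p = 0.364) and Calb1 (0.15 ± 0.20, adjusted p = 0.574) did not pass. Pvalb stood at 28.7 in posterior replicate 3 and at 6.14 to 11.6 in the other 6 sections.

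Pdzrn3, Car4 and Lamp5 were among the genes with the largest differences downwards. Pdzrn3, a ubiquitin ligase gene, was 5.43-fold lower (-2.44 ± 0.34, adjusted p = 0.000152), and Car4, a carbonic anhydrase gene, was 3.95-fold lower (-1.98 ± 0.22). Lamp5, a marker of a class of cortical interneurons and of other forebrain neurons, was at 1.63, 0.680, 2.72, 1.85, 2.73, 0.883 and 1.41 in Th cells against 5.35 to 7.05. The classes did not overlap (-1.89 ± 0.23, adjusted p = 7.37e-05), a 3.70-fold lower level. Of 25 transcription factor genes, 12 were lower and 2 higher, beside 24.1% lower and 23% higher among all genes, with a median of -0.46. The lower ones included Id2 (-0.80 ± 0.10) and Rorb (-0.74 ± 0.11). Slc17a7 was 2.45-fold lower (-1.29 ± 0.21) and Nrn1, the gene of neuritin, 2.37-fold lower (-1.24 ± 0.20).

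**Figure D4:**
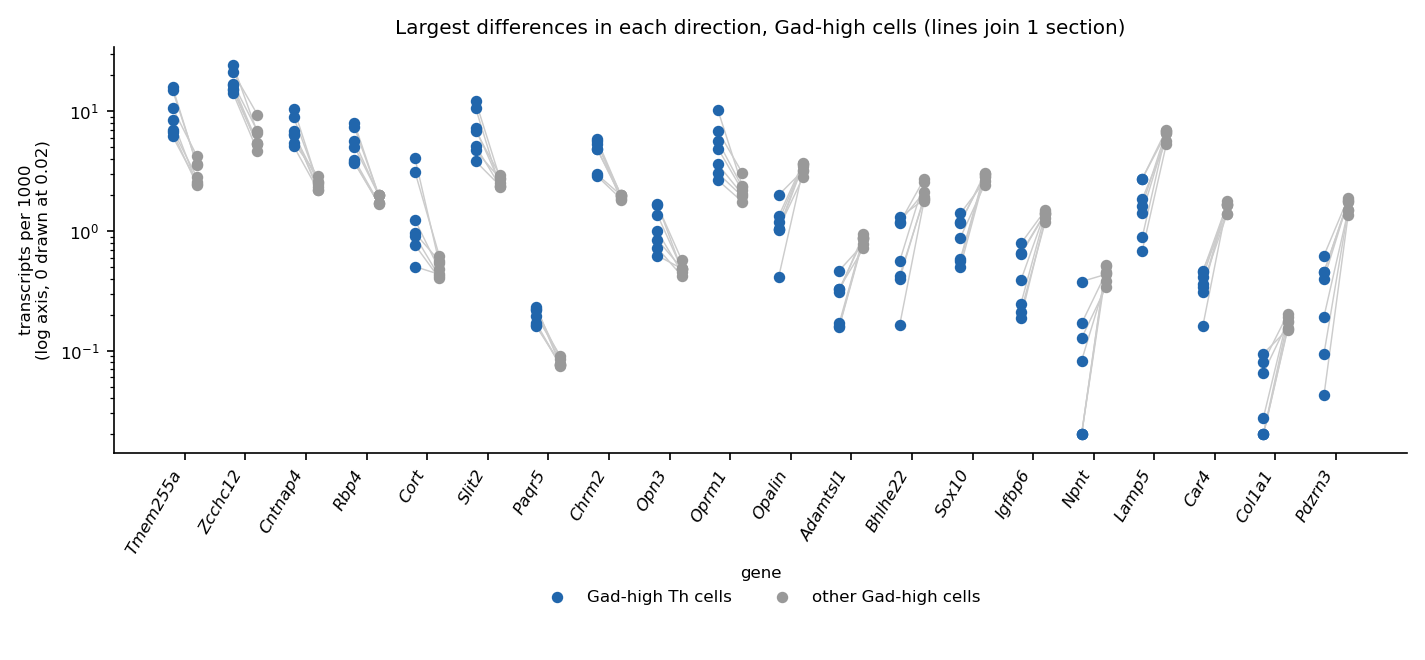
Level per section, as transcripts per 1000 of the 291 genes on a log axis, of the 10 genes with the largest difference in each direction among those that moved one way in all 7 sections; each pair of dots is the Th cells and the other Gad-high cells of 1 section, and values of 0 are drawn at the lower end of the axis. For Tmem255a, Zcchc12 and Slit2 every Th dot lies above every dot of the other cells, and for Lamp5 and Car4 every Th dot lies below.

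Transcripts of other cell types differed between the classes in the same comparison. Astrocyte markers together, all 7 measured, made up 21.6 to 34.3 per 1000 transcripts of all genes in Gad-high Th cells against 38.8 to 42.0 in other Gad-high cells. The 5 oligodendrocyte markers made up 7.78 to 12.8 against 14.6 to 17.9, and the 7 microglia markers 2.57 to 6.78 against 7.79 to 8.70. Of 48 glial, vascular and meningeal genes tested, 20 were lower in Th cells and 2 higher, with a median of -0.67. Among all genes 24.1% were lower and 23% higher. Sox10 (-1.55 ± 0.22) and Opalin (-1.48 ± 0.22), both of oligodendrocyte lineage, were among the 20. No marker of these 3 lists was at 0 in either class. With under 20 glial and vascular transcripts per cell in both classes, 3 sections remained and 48 genes passed, and Sncg (-1.34), Sst (-0.63), Nts (-0.33) and Grik3 (-0.13) turned. The part of neighbouring cells in the lower levels of Slc17a7, Nrn1 and the transcription factors was not tested.

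The comparison was repeated at a higher Gad limit. Among cells with at least 20 Gad transcripts in both classes, 90 of the 291 genes passed, and this limit was chosen after the data were seen. The differences of Tmem255a (1.19 ± 0.14), Zcchc12 (1.01 ± 0.12), Slit2 (1.22 ± 0.19), Chrm2 (1.09 ± 0.18), Oprm1 (0.90 ± 0.19) and Lamp5 (-1.61 ± 0.21) still passed, each smaller than before. Rab3b was 0.56 ± 0.11 and Vat1l 0.55 ± 0.17. Calb2 (0.30 ± 0.18, adjusted p = 0.218), Sst (0.32 ± 0.34, adjusted p = 0.487), Slc17a7 (-0.41 ± 0.17, adjusted p = 0.0904) and Nrn1 (-0.55 ± 0.20, adjusted p = 0.0562) no longer passed. Neither did Hpcal1 (0.52 ± 0.24, adjusted p = 0.122), Nts (0.61 ± 0.36, adjusted p = 0.214) or Arc (-0.15 ± 0.16, adjusted p = 0.487). Slc6a3 kept its size (4.44 ± 0.72, adjusted p = 0.000922).

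The share of cells with at least 5 transcripts of a gene gave a second view of 12 markers. None of the 12 differed at an adjusted p of 0.05 (0%), and the smallest adjusted p was 0.0625, where 7 sections allow no unadjusted p under 0.0156 in the two-sided exact sign-flip test. By unadjusted p, 6 of 12 (50%) were under 0.05. Of these, Calb2 and Slc17a6 were higher in 7 of 7 sections and Pdyn in 6 of 7. Lamp5 was lower in 7 of 7, and Pvalb and Slc17a7 in 6 of 7. Calb2 reached 5 in 29.5% ± 10.1 (SD, n = 7) of Gad-high Th cells per section against 13.2% ± 3.84 (SD, n = 7) of other Gad-high cells, and was higher in 7 of 7 sections. Lamp5 did so in 5.79% ± 5.78 (SD, n = 7) against 19.1% ± 2.22 (SD, n = 7), and was lower in 7 of 7. Sst reached 5 in 10.3% ± 7.57 (SD, n = 7) of the Th cells, with a higher share than in other cells in 6 of 7 sections, and in 4 of 7 at a limit of 3 transcripts or with at least 20 Gad transcripts. At that Gad limit the Calb2 shares were 24.5% and 15.9%, a difference of 8.60 percentage points against 16.4. These shares are not scaled for the higher totals of Th cells. Thinned to 200 transcripts a cell with a limit of 2, the Calb2 difference was 11.6, higher in 6 of 7 sections. That of Sst was then 4.77 against 7.55, higher in 5 of 7, and that of Lamp5 was -19.4, lower in 7 of 7.

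Gad-high Th cells were also compared by position. Between posterior and anterior sections 0 of 234 genes passed (0%, edgeR), 3 (1.28%) had an unadjusted p under 0.05, and DESeq2 called 0, with 1 unadjusted. The sections of the groups did not overlap for 25 genes (10.7%). The interaction of Th class and position gave 0 calls among 291 genes (0%) and 1 unadjusted (0.344%), and DESeq2 gave 0 and 3. With 2 sections against 3 these counts do not show that position has no effect. A fit with the replicate number as a block rests on posterior replicate 1 alone for the posterior side, so its gene counts are not given. Gad-low Th cells could not be compared by position, because 1 of the anterior sections held none.

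Most Gad-low Th cells held Slc17a6, Calb1, Pdyn and Vat1l, each counted alone. Of 48 cells, 43 held at least 5 transcripts of Slc17a6, 43 of Calb1, 38 of Pdyn, 47 of Vat1l and 27 of Ebf3, a transcription factor gene. The medians were 24.5 Calb1, 14 Pdyn and 6 Ebf3 transcripts per cell. Calb1 and Ebf3 both reached 5 in 26 cells, all 26 also reached 5 in Pdyn, and 24 of them did so in Slc17a6. These 26 cells lay in 6 sections, with 0, 6, 2, 6, 4, 2 and 6 from anterior replicate 1 to posterior replicate 4. In the other 22 cells, which did not hold 5 of both Calb1 and Ebf3, Slc17a6 reached 5 in 19, Calb1 in 17, Vat1l in 21, Pdyn in 12 and Calb2 in 8, against 2 of 26 for Calb2. Their median was 5.5 Pdyn transcripts against 27 in the 26 cells. This split was made after the values were seen. Slc6a3, Sst, Vip, Cort and Neurod6 were at 0 in all 48 cells.

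Read from those genes, 164 Gad-low cells held at least 5 transcripts each of Slc17a6, Calb1, Ebf3 and Pdyn. Of these, 24 (14.6%, Wilson interval 10.0% to 20.9%) reached the Th limit and 81 held at least 1 Th transcript. Among Gad-low cells with Slc17a6 and no Ebf3 transcript, 7 of 26865 did (0.0261%). The 164 cells lay mostly in anterior replicate 2 (60), intermediate replicate 2 (53) and posterior replicate 4 (25). Anterior replicate 1 held none.

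Gad-high and Gad-low Th cells were then compared within the 6 sections that held at least 3 of each, a minimum set after the cell counts were seen. Of 178 genes tested with edgeR, 90 (50.6%) passed, 48 (27%) higher and 42 (23.6%) lower in Gad-high Th cells. The sections did not overlap for 57 genes (32%), and 104 (58.4%) had an unadjusted p under 0.05. Scaling by library size moved the median difference from 0.01 to 0.30 (log2) and gave 63 higher and 29 lower of 92. Slc17a6 itself was at 1.95 to 5.21 in Gad-high and 9.05 to 18.3 in Gad-low Th cells, with no overlap (-2.35 ± 0.28, adjusted p = 9.5e-07). The Gad genes, which divided the cells, were left out.

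Ebf3, Pdyn and Calb1 led the genes that were higher in Gad-low Th cells. Ebf3 was at 12.8, 14.0, 14.4, 9.61, 9.09 and 18.7 per 1000 in Gad-low Th cells of anterior replicate 2, both intermediate and the 3 posterior sections, against 0 to 1.30 in Gad-high Th cells. It was 56.0-fold higher with no overlap (-5.81 ± 0.49, adjusted p = 5.22e-09). Pdyn was at 16.0 to 41.3 against 2.18 to 7.10 (-3.35 ± 0.26, adjusted p = 2.92e-09), and Calb1 at 31.6 to 54.7 against 3.43 to 12.9 (-2.82 ± 0.23). The transcription factor genes Foxp2 (-2.14 ± 0.29) and Fezf2 (-2.76 ± 0.37) moved the same way, as did Necab1 (-1.97 ± 0.30), a calcium-binding protein gene, and Cntn6 (-2.00 ± 0.26), a contactin gene. Gfap, an astrocyte gene, was also higher in Gad-low Th cells (-2.18 ± 0.52), with 86.9 per 1000 in intermediate replicate 1, where 3 cells make up the class, and 1.51 to 13.8 elsewhere. Without that section it was -1.59, and with Gad1+Gad2 of at least 10 or at most 1 it was -0.41 (adjusted p = 0.682).

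Pvalb led the genes that were higher in Gad-high Th cells. It was at 6.14 to 28.7 against 0 to 0.980, a 39.2-fold difference (5.29 ± 0.54, adjusted p = 1.06e-07), and no Gad-low Th cell held 5 Pvalb transcripts. Slc17a7 was 7.14-fold higher (2.84 ± 0.41), Ppp1r1b 6.81-fold (2.77 ± 0.40), Penk 5.39-fold (2.43 ± 0.38) and Grik3 8.89-fold (3.15 ± 0.44). Meis2, a homeobox gene, was at 12.9 to 23.5 against 0.348 to 10.2 (2.24 ± 0.45). The highest Meis2 levels of Gad-low Th cells were in posterior replicates 3 and 4.

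The gene groups were counted beside the 27% of all tested genes that were higher in Gad-high Th cells and the 23.6% that were lower. Of 5 peptide and amine receptor genes tested, 4 were higher in Gad-high Th cells and 0 lower, with a median of 1.44 against 0.01 over all genes. The calls of Oprm1 and Htr1f did not outlast leaving out anterior replicate 2 (adjusted p = 0.0768 and 0.0766), and that of Htr1f was also lost without intermediate replicate 2 or posterior replicate 1 or 4. Of 11 channel genes, 6 were higher, 0 were lower and 5 did not pass, with a median of 1.10. Of 7 calcium-binding protein genes, Pvalb was higher and Calb1, Necab1 and Hpcal1 were lower. Of 20 transcription factor genes, 3 were higher and 5 lower, and of 18 guidance and adhesion genes 5 were higher and 7 lower.

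Last, the 43 Gad-low Th cells with at least 5 Slc17a6 transcripts were compared with the other Gad-low cells that met the same mark. The 5 sections with at least 3 such Th cells were used, again a minimum set after the cell counts were seen. Of 288 genes tested, 135 (46.9%) passed, 50 (17.4%) higher and 85 (29.5%) lower, and the median of all genes was -0.37 (log2), or -0.57 with library size. Levels are per 1000 transcripts of the 290 genes left when Slc17a6 is also taken out. The sections did not overlap for 128 genes (44.4%), and 150 (52.1%) had an unadjusted p under 0.05.

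Pdyn stood out most among the genes higher in Gad-low Th cells with Slc17a6. It was at 19.6, 40.1, 34.4, 16.3 and 41.2 in anterior replicate 2, intermediate replicate 2 and posterior replicates 1, 3 and 4, against 0.921, 1.01, 0.168, 0.222 and 0.310 in the other cells. The difference was 6.31 ± 0.37 (adjusted p = 3.4e-13), or 79.6-fold. Ebf3 was at 9.25 to 19.1 against 0.170 to 1.98 (4.81 ± 0.40, adjusted p = 4.17e-10), or 28.0-fold. Both genes were higher in the other cells of both replicate 2 sections than in those of the posterior ones.

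Other genes shared this profile in all 5 sections without overlap. Vat1l was at 42.9 to 58.5 against 3.52 to 7.58 (3.40 ± 0.19), and Calb1 at 32.2 to 55.6 against 6.69 to 11.1 (2.58 ± 0.18). Parm1 was at 26.1 to 37.4 against 1.60 to 2.55. Foxp2 (2.33 ± 0.24), the guidance cue Slit2 (2.33 ± 0.23), the cadherin genes Cdh9 (3.28 ± 0.35) and Cdh13 (2.08 ± 0.21), and Rab3b (2.05 ± 0.25) were also higher. Sncg was higher (3.45 ± 0.42) over a wide range, from 1.46 in intermediate replicate 2 to 15.2 in posterior replicate 1.

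Genes known from cortical excitatory neurons were found among the lower and among the higher ones. The transcription factor genes Fezf2 (2.10 ± 0.37, higher in 4 of 5 sections) and Tle4 (0.70 ± 0.28, 5 of 5), both known from deep-layer cortical neurons and chosen after their values were seen, were higher, as was Foxp2. Slc17a7 was at 0.221 to 0.803 against 12.5 to 18.9 (-4.53 ± 0.31, adjusted p = 9.82e-12), a 23.1-fold lower level. Neurod6 had no transcript in the Th cells and was at least 36.7-fold lower, against a floor of 3 counts over the class. Arc was 12.0-fold lower (-3.58 ± 0.34) and Rorb, a transcription factor gene of thalamus and cortex, 3.77-fold lower (-1.92 ± 0.24). Among cells with Slc17a7 under 5, a limit chosen after the data were seen, 124 genes passed, and Pdyn (5.69), Ebf3 (4.06) and Calb1 (2.31) remained higher, while Arc (-0.96, adjusted p = 0.0846) no longer passed.

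**Figure D5:**
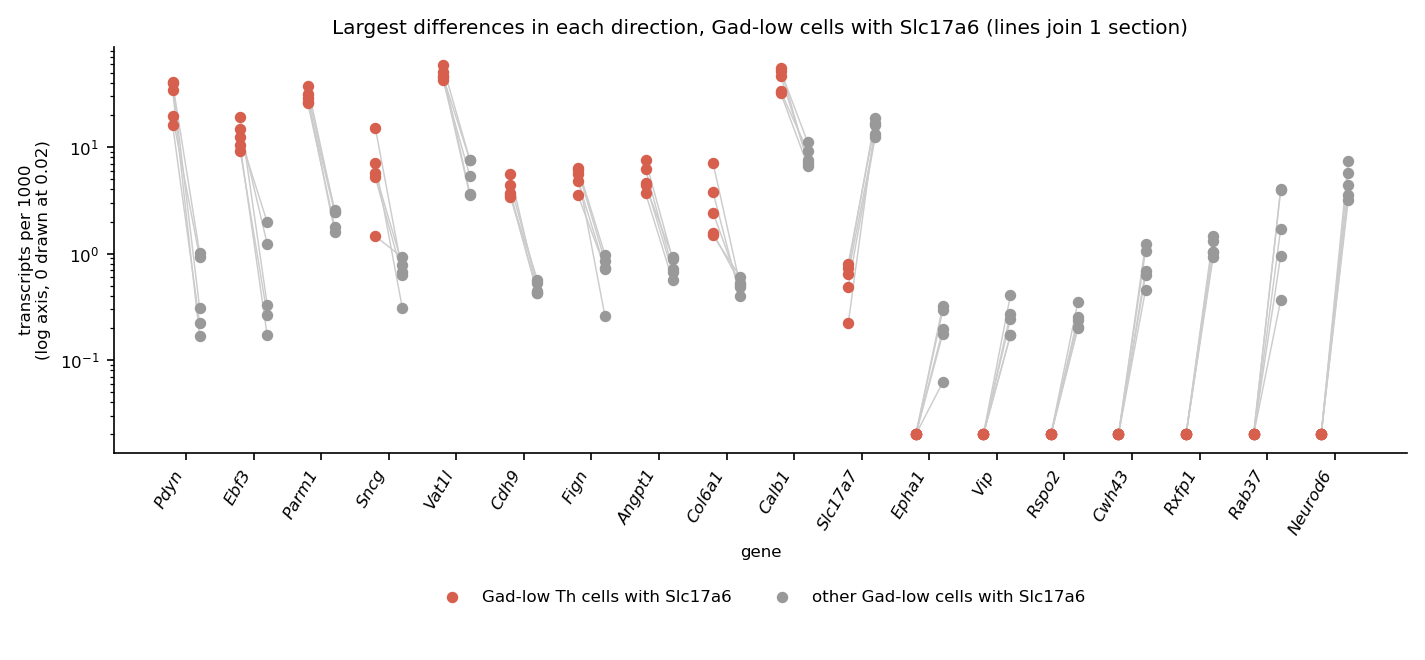
Level per section, as transcripts per 1000 on a log axis, of the genes with the largest difference in each direction (up to 10, without those that have 1 to 3 transcripts in the Th cells) between Gad-low Th cells with Slc17a6 and other Gad-low cells with Slc17a6; each pair of dots is 1 of 5 sections, and values of 0 are drawn at the lower end of the axis. For Pdyn, Ebf3, Parm1, Vat1l and Calb1 the 2 sets of dots do not overlap, and for Neurod6 all Th dots are at 0.

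Group counts in this comparison went in both directions, and are given beside 17.4% higher and 29.5% lower among all genes tested. Of 25 transcription factor genes, 5 were higher and 11 lower, with a median of -0.41 against -0.37 over all genes. Of 22 guidance and adhesion genes, 7 were higher and 7 lower. Of 7 calcium-binding protein genes, 3 were higher (Calb1, Hpcal1 and Necab1) and Pvalb was lower (-2.98 ± 0.58). Of 10 neuropeptide genes, Pdyn and Nts were higher and Vip was lower. Nts was at 0 in 37 of the 48 Gad-low Th cells and reached 5 in 2, and Vip had no transcript in the Th cells. Astrocyte markers made up 27.3 to 45.4 per 1000 transcripts of all genes in these Th cells against 39.6 to 50.5 in the other cells, while Gfap was higher (2.09 ± 0.36, in 4 of 5 sections), and the part of astrocytes in the result was not tested. With under 20 glial and vascular transcripts per cell, 2 sections of 3 Th cells remained, 16 genes passed, and Gfap (-10.83) and Nts (-11.00) turned.

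Some genes passed in the same direction in Gad-high and in Gad-low Th cells, each against its own reference class, and others in opposite directions. With 47.1% and 46.9% of genes passing, some overlap arises without a shared profile, and its extent was not tested. Htr2c, Grik3, Lypd6, Nrp2, Rims3 and Cbln1 were higher in Gad-high and lower in Gad-low Th cells, and Fezf2 went the other way. Slit2, Rab3b, Cdh13, Sncg and Hpcal1 were higher in both comparisons, at 1.52, 1.22, 0.91, 2.05 and 1.03 for Gad-high and 2.33, 2.05, 2.08, 3.45 and 2.34 for Gad-low Th cells. Slc17a7, Kcnh5, Arc, Nrn1 and Rorb were lower in both, although in Gad-high cells Hpcal1, Slc17a7, Arc and Nrn1 did not pass at the higher Gad limit. Sncg in Gad-high cells was highest in intermediate replicate 2, was 1.63 ± 0.38 without it, and turned to -1.34 with under 20 glial and vascular transcripts. The reference classes differ, so the sizes are given side by side and not compared. These genes were picked out after their values were seen.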

How the data were processed

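The authors deposited 1 table of raw transcript counts per gene and cell and 1 table of cell metadata. The counts are whole numbers, with no normalization, and were read as deposited. Of the metadata the deposited column of section names, of unit other, was used, joined by cell barcode. The control probe counts were read from the same metadata, and its total counts were checked against the sums of the counts. Per the submitters' processing notes, Seurat was used, in a version not given there. How transcripts were decoded, cells segmented and doublets treated is likewise not given in the sources used here, and no doublet caller was run. Members and gene lists were chosen with earlier results of these data known. Where cells hold transcripts of neighbours, segmentation can place them in a Th cell.

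Counts were summed per section and class, without the 6 genes the rule used, and tested with edgeR 4.0.16 (R 4.3.3; TMM, section as block, quasi-likelihood test, Benjamini-Hochberg adjustment over all genes tested). A section entered with at least 10 cells per class. For both comparisons with Gad-low Th cells this was lowered to 3, after cell counts were seen, because at 10 too few sections remained. DESeq2 1.42.0 was an alternative. Shares were compared by exact permutation of sections or exact sign-flip tests (SciPy 1.17.1), two-sided. Genes were named by rule: the 10 largest differences in each direction that passed and ran the same way in every section, and up to 4 that passed from each list; all markers and co-detection genes could be named. Other genes, such as Vat1l in Gad-high Th cells, and the single-marker subsets, Gad bands and their leading genes were chosen after their values were seen. The fits were also run on simulated counts with the same spread for every gene and no section effect. Real sections can depart from both, and no result here rests on that run.

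Some results for 1 gene are not reported here.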

Additional observations from a re-analysis of the deposited data

How the results depend on the processing

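In the 3 class comparisons and co-detection, the counts of genes that passed stayed within 1.5 times of the reported one under every alternative run except these. With under 20 glial and vascular transcripts per cell, 13 genes passed for Gad-high against Gad-low Th cells, 48 for Gad-high Th cells against other Gad-high cells and 16 for Gad-low Th cells with Slc17a6 against other Gad-low cells with Slc17a6; fewer sections and cells entered. With Gad1+Gad2 of at least 20, 90 passed for Gad-high Th cells against other Gad-high cells. With Gad1+Gad2 of at least 10, or at most 1, 80 passed for Gad-low Th cells with Slc17a6. For co-detection, 5 of 12 genes passed at a limit of 3 transcripts (Calb2, Slc17a6, Pdyn, Lamp5 and Pvalb). When the other cells held no Th, 4 passed, the same genes without Pdyn. Leaving out 1 section at a time gave 75 to 88, 117 to 126 and 115 to 134 genes in the 3 class comparisons.

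The difference in the share of Th cells between posterior and anterior sections was 0.00401 percentage points with Th of at least 10 (exact permutation test, p = 0.1), and -0.0304 to 0.0211 when 1 section was left out. The difference in the Gad-high share ran from -17.9 to 9.21. In each case the cause was not tested.

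Of 893 values of 47 named genes in Gad-high Th cells against other Gad-high cells, 828 kept direction and call, 57 lost the call and 8 turned. With under 20 glial and vascular transcripts those were Npnt at 0.0314, Sst at -0.63, Nts at -0.33, Sdk2 at -0.0384, Grik3 at -0.13 and Sncg at -1.34. With Slc17a7 under 5 they were Paqr5 at -0.0156 and Bhlhe22 at 0.14. For Gad-high against Gad-low Th cells, 487 of 523 values kept and 36 lost the call. For Gad-low Th cells with Slc17a6 it was 568 and 90 of 660, and with under 20 glial and vascular transcripts Nts turned to -11.00 and Gfap to -10.83, values that rest on 2 sections of 3 cells. In co-detection, 12 of 144 values turned: Penk at -1.04 and Calb1 at -2.03 percentage points after thinning, Crh at 1.05 with at least 3 transcripts, Crh at 0.607 and Penk at -4.12 with at least 10, Penk at -1.23 and Calb1 at -4.66 with Gad1+Gad2 of at least 20, and Crh between -1.05 and 0.262 when 1 section was left out.

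Anterior and posterior sections share replicate number 1 alone, and the labels do not say that numbers pair sections. Deviations from the group means correlated at 0.62, 0.13 and 0.35 over 213 genes for sections of the same number and at -0.62 to 0.33 for others. With 2 sections in the anterior and in the intermediate group, the deviations within each are mirror images. Values of the other pairs are thus largely fixed by those of the same number, and cannot decide whether numbers pair sections. With the replicate block, 3 genes passed between posterior and anterior sections and 3 for the interaction of Th class and position, against 0 in each. The block gave 101, 170 and 145 genes in the class comparisons.

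Th of at least 10 was not run for the gene comparisons, nor the limit on glial transcripts for those by position, as too few cells remained. The limit of 5 Th transcripts leaves out dimmer cells, and 48 Gad-low Th cells in 6 sections limit what can be measured there.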
